A study of Arabidopsis thaliana with 12 samples.

Results

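This account covers 5 Arabidopsis thaliana genes that act on jasmonic acid: the jasmonate-induced oxygenases JOX1 (AT3G11180), JOX2 (AT5G05600), JOX3 (AT3G55970, also named JRG21) and JOX4 (AT2G38240), and the hydroxyjasmonate sulfotransferase ST2A (AT5G07010). They were chosen by name and locus and not by a rule on a measured value, but with earlier results of these data known. They are 5 of the 23719 genes listed. RNA sequencing measured transcript levels in roots of seedlings grown for 5 days at 22 °C, after 2 days at 4 °C, on MS plates. There were 4 groups of 3 libraries: erf114 with methyl jasmonate (MeJA) for 3 h, Col with MeJA for 3 h, erf114 on MS, and Col on MS. The titles give no time and no mock treatment for the MS libraries. By the titles alone, an effect of handling or sampling time cannot be told apart from that of MeJA. Col is the wild-type accession and erf114 a mutant of the transcription factor gene ERF114, and the stated aim was to examine the place of ERF114 in jasmonate signalling. The MeJA dose is stated once as 15 µM, with the treatment, and once as 50 µM, with the design. Neither the kind and position of the erf114 mutation nor the number of lines is stated in the labels. The labels do not say whether replicates came from separate cultures, so p-values measure the spread between these libraries only.

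Jasmonic acid is made from membrane lipids and is conjugated to isoleucine, and the conjugate (JA-Ile) is the form that the receptor COI1 binds. The JOX enzymes are 2-oxoglutarate-dependent dioxygenases that hydroxylate jasmonic acid to 12-hydroxyjasmonic acid, which draws precursor away from the active conjugate. ST2A then transfers a sulfate group onto 12-hydroxyjasmonic acid, and transcripts of such turnover genes are known to accumulate after wounding or jasmonate treatment.

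Library totals were 20546417 to 20897031 estimated read counts, and 18326 genes passed the filter of at least 1 FPKM (fragment counts divided by gene length and by library size) in at least 3 libraries. JOX2, JOX3, JOX4 and ST2A passed it, and JOX1 did not. JOX3 and JOX4 passed only through their MeJA libraries, as each of their MS libraries was under 1 FPKM. As a check of the genotype labels, ERF114 had 13, 13 and 10 counts in erf114 with MeJA, against 59, 50 and 42 counts in Col with MeJA. The groups did not overlap, and the log2 difference was -1.95 ± 0.39 (SE; adjusted p = 0.071 by edgeR's quasi-likelihood test, 0.00056 by DESeq2). Of all genes tested, 17.4% did not overlap between these groups, counting both directions. ERF114 passed the filter only through the 3 Col MeJA libraries, the group where it was high, so its test is not independent of the filter. On MS no library had more than 3 counts of ERF114, so the genotype could not be checked there. All 6 root markers were detected in every library, with summed levels of 9240 to 12300 FPKM in erf114 with MeJA, 11200 to 12400 in Col with MeJA, 6320 to 7330 in erf114 on MS and 4590 to 6230 in Col on MS. The 6 shoot markers summed to 103 to 553 FPKM across the libraries, and none was at 0. The root markers' sum was higher with MeJA in each genotype, and most of it was PYK10, a root beta-glucosidase gene at 2987 to 11333 FPKM. The root markers did not move together: with MeJA, 2 were called higher and 1 lower in erf114 (median log2 change 0.05), and 1 higher and 2 lower in Col (median -0.44). PYK10 was higher in both genotypes, whereas IRT1, the iron transporter gene, was lower in both, at -3.09 ± 0.27 in erf114 and -3.02 ± 0.28 in Col on the log2 scale. The part of these markers in the results below was not tested. On the second principal component 1 Col MS library (replicate 1, at 57.8) and 1 erf114 MeJA library (replicate 3, at 42.9) stood apart from the others, which lay between -21.7 and 10.9. Leaving out either changed no call of a member in any comparison. In such whole roots, a change in the number of expressing cells and a change in RNA per cell cannot be told apart.

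The 4 JOX genes lie apart from one another in the genome (TAIR10.1). JOX1 is at chr3:3503917-3507113 on the plus strand with 5 exons, JOX2 at chr5:1672070-1674770 on the plus strand with 3 exons, JOX3 at chr3:20766735-20769410 on the minus strand with 3 exons, and JOX4 at chr2:16012535-16014991 on the minus strand with 3 exons. ST2A is a single-exon gene at chr5:2174668-2176446 on the minus strand, and its close relative ST2B (AT5G07000) begins 1652 bases away on the same strand. No other annotated gene overlaps any of them. Over their aligned coding bases JOX1 and JOX2 were 79.8% identical, JOX2 and JOX3 69.0%, JOX2 and JOX4 65.4%, and JOX3 and JOX4 62.7%. The following stretch of coding sequence, 60 bases of the most alike part, is shown because it bears on whether reads of 1 gene could be counted for another; capitals mark bases unlike JOX2.
JOX1: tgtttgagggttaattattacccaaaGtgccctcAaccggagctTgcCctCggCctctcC
JOX2: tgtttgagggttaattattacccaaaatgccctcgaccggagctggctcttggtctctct
JOX3: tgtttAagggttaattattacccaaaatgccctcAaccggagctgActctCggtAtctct
JOX4: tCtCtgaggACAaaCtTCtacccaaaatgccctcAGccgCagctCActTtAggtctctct
In this stretch JOX1 differed from JOX2 at 7 bases, JOX3 at 5 and JOX4 at 15. No 50-base window within an exon of any JOX gene had an exact copy elsewhere in the genome. Matches with mismatches and reads across exon joins were not examined, and the aligner and counting tool are not given. How fully the reads of the 4 genes were separated was therefore not tested.

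ST2A and ST2B were 91.6% identical over 1038 aligned coding bases, and their longest shared run was 53 bases, printed here as the place where reads could be assigned to either gene.
ST2A and ST2B: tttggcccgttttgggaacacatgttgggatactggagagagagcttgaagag
Of 1730 exon windows of 50 bases in ST2A, 4 also occurred elsewhere in the genome.

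JOX2 was the most abundant of the 5 genes per length in all 12 libraries. With MeJA it stood at 588, 650.4 and 500.2 FPKM in the erf114 libraries and at 495, 431 and 466 FPKM in the Col libraries. On MS it stood at 49.0, 36.8 and 70.3 FPKM in erf114 and at 47.4, 38.8 and 44.1 FPKM in Col. Every MeJA library lay above every MS library, and the MS level was already well above that of the other JOX genes. The log2 fold change (MeJA over MS) was 3.75 ± 0.25 in erf114 (SE; 95% interval 3.21 to 4.30; adjusted p = 5.2e-07) and 3.46 ± 0.25 in Col (2.92 to 3.99; adjusted p = 9.4e-07). These and all later adjusted p-values of single genes are from edgeR's quasi-likelihood test over the 18326 genes, with Benjamini-Hochberg adjustment, unless another test is named. Each SE of a log2 change, here and elsewhere, was derived from that test. It is the absolute log2 change divided by the square root of the F statistic. The 95% intervals follow from this SE, so neither was estimated directly.

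JOX3 was nearly silent on MS. With MeJA it reached 95.3, 86.2 and 85.2 FPKM in erf114 and 109.5, 83.5 and 86.7 FPKM in Col. On MS it had 0.53, 0.25 and 0.24 FPKM in erf114, on 25 counts in all, and 0.12, 0.28 and 0.20 FPKM in Col, on 15 counts in all. The groups were far apart, with each MS library under 1 FPKM. The log2 fold change was 8.31 ± 0.27 in erf114 (95% interval 7.72 to 8.90; adjusted p = 3.2e-09) and 8.89 ± 0.29 in Col (8.26 to 9.51; adjusted p = 2.8e-09). From the count sums alone, the ratio was 262 in erf114, with an exact 95% interval of 177 to 405, and 458 in Col, with an interval of 277 to 818. These intervals cover counting error only. In Col the interval of the fit was narrower than the count interval on the same scale, so it can understate the error.

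JOX4 followed the same course. It reached 89.5, 72.5 and 64.6 FPKM in erf114 with MeJA and 66.6, 63.2 and 70.3 FPKM in Col with MeJA. On MS it had 0.11, 0.08 and 0.57 FPKM in erf114 and 0.37, 0.04 and 0.11 FPKM in Col. In each genotype 1 MS library held most of the few reads, which were 3, 2 and 15 counts in erf114 and 10, 1 and 3 counts in Col. The log2 fold change was 8.50 ± 0.48 in erf114 (95% interval 7.46 to 9.54; adjusted p = 1.4e-07) and 8.58 ± 0.49 in Col (7.51 to 9.66; adjusted p = 2.1e-07). Without erf114 MS replicate 3 the erf114 value was 9.87, and without Col MS replicate 1 the Col value was 9.87, and the call held in both.

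ST2A, the sulfotransferase, had a clear level on MS and changed less. With MeJA it had 48.2, 44.7 and 49.2 FPKM in erf114 and 45.1, 52.7 and 52.4 FPKM in Col. On MS it had 10.6, 9.77 and 9.78 FPKM in erf114 and 6.36, 8.78 and 7.70 FPKM in Col. The MeJA and MS groups did not overlap in either genotype, and replicates lay close together. The log2 fold change was 2.55 ± 0.12 in erf114 (95% interval 2.29 to 2.81; adjusted p = 3.9e-08) and 2.79 ± 0.12 in Col (2.52 to 3.06; adjusted p = 2.2e-08). Its relative ST2B, with which it shares the stretch shown above, had 2.47 ± 0.421 FPKM in erf114 with MeJA, 1.73 ± 0.218 in Col with MeJA, 2.17 ± 0.214 in erf114 on MS and 2.34 ± 0.597 in Col on MS (SD, n = 3). The log2 fold change of ST2B was 0.49 ± 0.20 in erf114 (adjusted p = 0.14) and -0.36 ± 0.21 in Col (adjusted p = 0.24), neither of which passed the test.

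JOX1, the gene closest in coding sequence to JOX2, was barely detected in these roots. It had 1, 1 and 1 counts in erf114 with MeJA, no listed reads in any library of Col with MeJA, 2, 1 and 1 counts in erf114 on MS, and 5, 1 and 3 counts in Col on MS. Its highest level was 0.17 FPKM. In a fit without the filter, over 23707 genes, MeJA against MS in Col had an adjusted p of 0.031, on 0 against 9 counts, and in erf114 of 0.99. No fold change is given for so few reads.

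**Figure D1:**
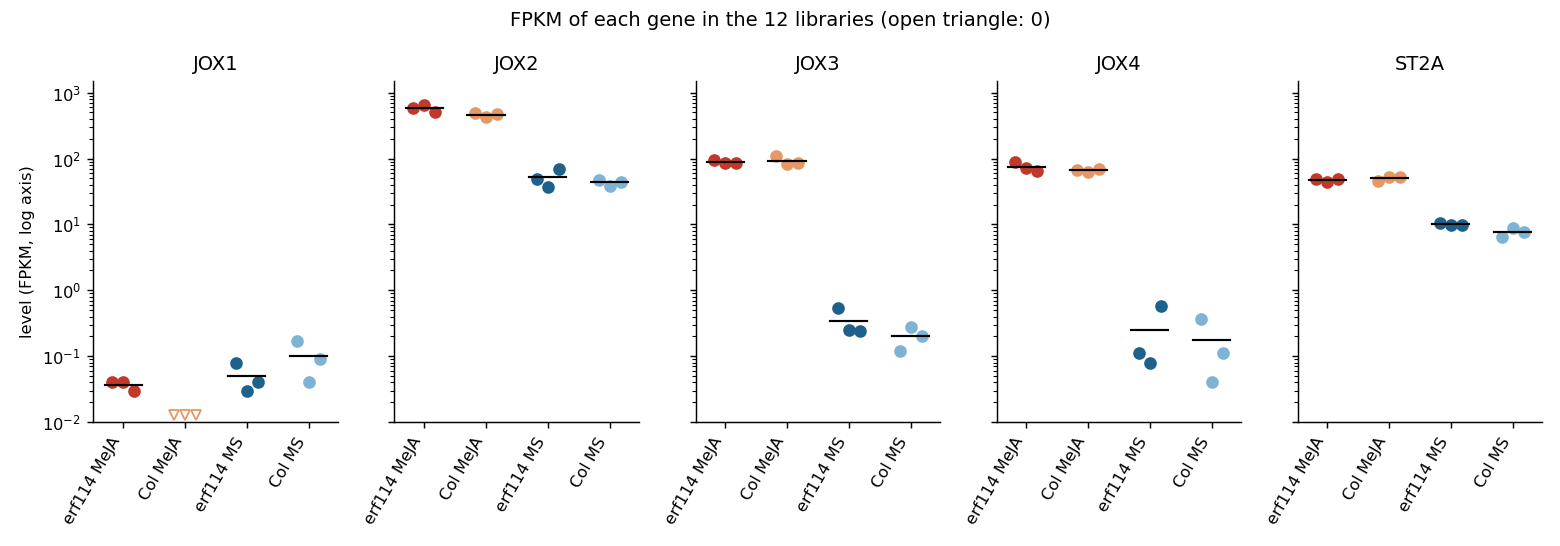
FPKM of the 5 genes (log axis) in each of the 12 libraries, 1 panel a gene; points are libraries, bars are group means, and open triangles mark libraries at 0. JOX3 and JOX4 lie under 1 FPKM on MS and at 63.2 to 109.5 FPKM with MeJA, whereas JOX2 and ST2A start from 36.8 to 70.3 and 6.36 to 10.6 FPKM.

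All 4 tested genes were called higher with MeJA in both genotypes, where 10.2% of all genes tested were called higher in erf114 and 10.4% in Col. None of the 4 overlapped between MeJA and MS in either genotype, and 7.8% of genes in erf114 and 12% in Col were higher without overlap. JOX3 and JOX4 were in the tested set only through their MeJA levels, so their calls and ranks are not independent of the filter. The calls of both genes held in the fit without the filter. Ordered from the largest log2 rise among 18326 genes, JOX4 stood at rank 2 in erf114 and 5 in Col, and JOX3 at rank 3 in both. JOX2 stood at rank 108 in erf114 and 133 in Col, and ST2A at rank 260 in erf114 and 202 in Col. The order of the levels per length with MeJA was JOX2, then JOX3 and JOX4, then ST2A, then JOX1. Means were 580 ± 75.5 FPKM for JOX2, 88.9 ± 5.60 for JOX3, 75.5 ± 12.7 for JOX4 and 47.4 ± 2.34 for ST2A in erf114 with MeJA (SD, n = 3). In erf114 the ranges of JOX3 and JOX4 overlapped. In Col with MeJA the means were 464 ± 32.3 FPKM for JOX2, 93.2 ± 14.2 for JOX3, 66.7 ± 3.55 for JOX4 and 50.0 ± 4.32 for ST2A, and there no neighbours in the order overlapped. On MS the order was JOX2, ST2A, and then JOX3 and JOX4, whose ranges overlapped in both genotypes.

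Whether the genes differed in the size of their change was tested within libraries, on the log2 ratio of the counts of 2 genes, by an exact 2-sided permutation of treatment within genotype over the 10 pairs (400 permutations, smallest possible p 0.005). JOX3 and JOX4 could not be separated: the log2 ratio of JOX3 to JOX4 differed by -0.33 between MeJA and MS averaged over the genotypes, with -0.55 in erf114 and -0.10 in Col (exact p = 0.655, adjusted p = 0.655). The ratio varied widely on MS, with an SD of 1.71 in erf114 and 1.96 in Col, so a difference of that order would not be resolved. The ratio of JOX3 to JOX2 rose by 4.94 on the log2 scale (4.53 in erf114 and 5.35 in Col), and that of JOX4 to JOX2 by 5.27 (5.09 in erf114 and 5.45 in Col). Against ST2A, the ratio of JOX3 rose by 5.92 and that of JOX4 by 6.24. JOX2 also rose more than ST2A, by 0.98 (1.26 in erf114 and 0.69 in Col). Each of these 5 differences, and each of the 4 against JOX1, had the smallest possible exact p of 0.005 (adjusted p = 0.00556), with no overlap of MeJA and MS libraries in either genotype. The ratios to JOX1 rest on its 0 to 5 counts a library.

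The unequal changes altered the makeup of the JOX transcripts. With MeJA the 4 JOX genes summed to 744 ± 83.4 FPKM in erf114 and 624 ± 47.0 FPKM in Col, against 52.7 ± 17.1 FPKM in erf114 on MS and 43.9 ± 4.53 FPKM in Col on MS (SD, n = 3). JOX2 made up 77.8 ± 2.27% of that sum in erf114 with MeJA and 74.4 ± 0.529% in Col with MeJA, against 98.8 ± 0.200% in erf114 on MS and 98.9 ± 0.289% in Col on MS. JOX2 thus gave most of the JOX transcript in every library, and its share was lower in every MeJA library than in any MS library. JOX3 made up 12.3, 10.7 and 13.1% in the erf114 libraries with MeJA and 16.3, 14.5 and 13.9% in those of Col with MeJA. JOX4 made up 10.2 ± 1.33% in erf114 and 10.7 ± 0.710% in Col with MeJA. On MS each of these shares was at most 1.07%. The ratio of the summed JOX level to that of ST2A was 15.8 ± 2.46 in erf114 and 12.6 ± 2.04 in Col with MeJA, against 5.25 ± 1.80 in erf114 and 5.93 ± 1.56 in Col on MS. These shares follow from the levels above and were not tested further.

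**Figure D2:**
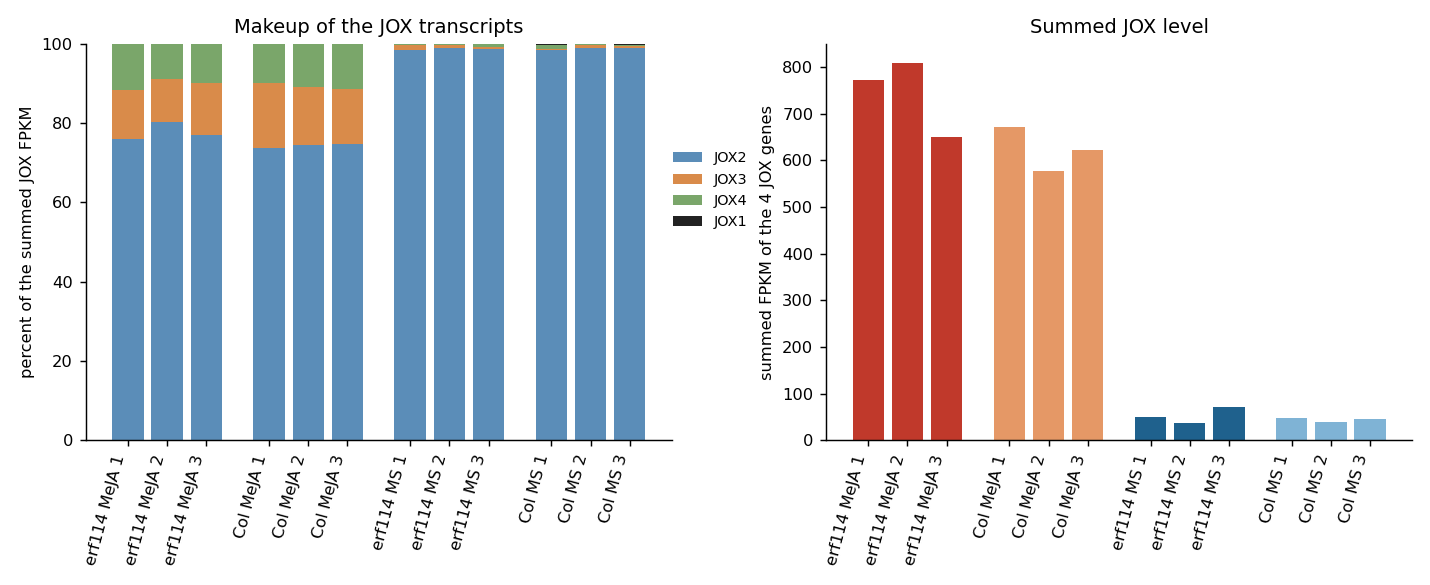
Left, percent of the summed FPKM of JOX1 to JOX4 given by each gene in each library; right, the summed FPKM, with the same 12 libraries along the horizontal axes. JOX2 fills 98.6 to 99.1% of each MS bar and 73.8 to 80.4% of each MeJA bar, and the summed level lies at 577 to 809 FPKM with MeJA against 37.2 to 71.1 FPKM on MS.

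The comparison of the genotypes asked whether these genes differed in the erf114 mutant, in which some ERF114 reads remained with MeJA. No member passed the test between erf114 and Col. With MeJA, 0.382% of all genes tested were called (8.58% at an unadjusted p under 0.05). JOX2 was higher in all 3 erf114 libraries than in any Col library, a pattern seen for 4.45% of genes, with a log2 difference of 0.43 ± 0.22 (95% interval -0.05 to 0.92; adjusted p = 0.62). For JOX4 the log2 difference was 0.31 ± 0.30 (-0.35 to 0.96; adjusted p = 0.76). For JOX3 and ST2A it was 0.06 ± 0.17 (-0.32 to 0.43; adjusted p = 0.92) and 0.06 ± 0.11 (-0.19 to 0.30; adjusted p = 0.87), although the mean FPKM of both was lower in erf114. The fit rescales libraries by TMM factors, which the deposited FPKM values do not carry, and the median of all genes on log2(FPKM + 1) was -0.11 in this contrast.

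On MS, 0.0327% of all genes tested were called between the genotypes (3.82% at an unadjusted p under 0.05). ST2A had 9.77 to 10.6 FPKM in the 3 erf114 libraries and 6.36 to 8.78 FPKM in the 3 Col libraries. The groups did not overlap, a pattern of higher values in erf114 that 7.46% of genes showed. The median of all genes on log2(FPKM + 1) was 0.11 in this contrast, so FPKM values in general ran higher in erf114. In the fit, which rescales libraries, the log2 difference of ST2A was 0.30 ± 0.12 (95% interval 0.04 to 0.56). Its unadjusted p was 0.026 and its adjusted p 0.85 in edgeR's quasi-likelihood test. The intervals for the others were -0.35 to 0.63 for JOX2, -0.32 to 1.58 for JOX3 and -1.34 to 2.12 for JOX4; the last 2 genes had few reads on MS. The log2 difference of JOX4 was 0.39 ± 0.79, was 1.68 without Col MS replicate 1 and was -0.98 without erf114 MS replicate 3.

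The interaction, which compares the MeJA response in erf114 with that in Col, was called for 0.0273% of genes (6.04% at an unadjusted p under 0.05) and for no member. The log2 interaction was 0.30 ± 0.32 for JOX2 (95% interval -0.40 to 0.99; adjusted p = 0.70), -0.58 ± 0.47 for JOX3 (-1.60 to 0.44; adjusted p = 0.65), -0.08 ± 0.78 for JOX4 (-1.79 to 1.62; adjusted p = 0.97) and -0.24 ± 0.16 for ST2A (-0.60 to 0.11; adjusted p = 0.64). The interval was narrowest for ST2A and widest for JOX4. The JOX3 value was -0.09 without erf114 MS replicate 1, the JOX2 value was 0.08 without Col MS replicate 1, and the JOX4 value was -1.37 without Col MS replicate 1 and 1.28 without erf114 MS replicate 3.

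**Figure D3:**
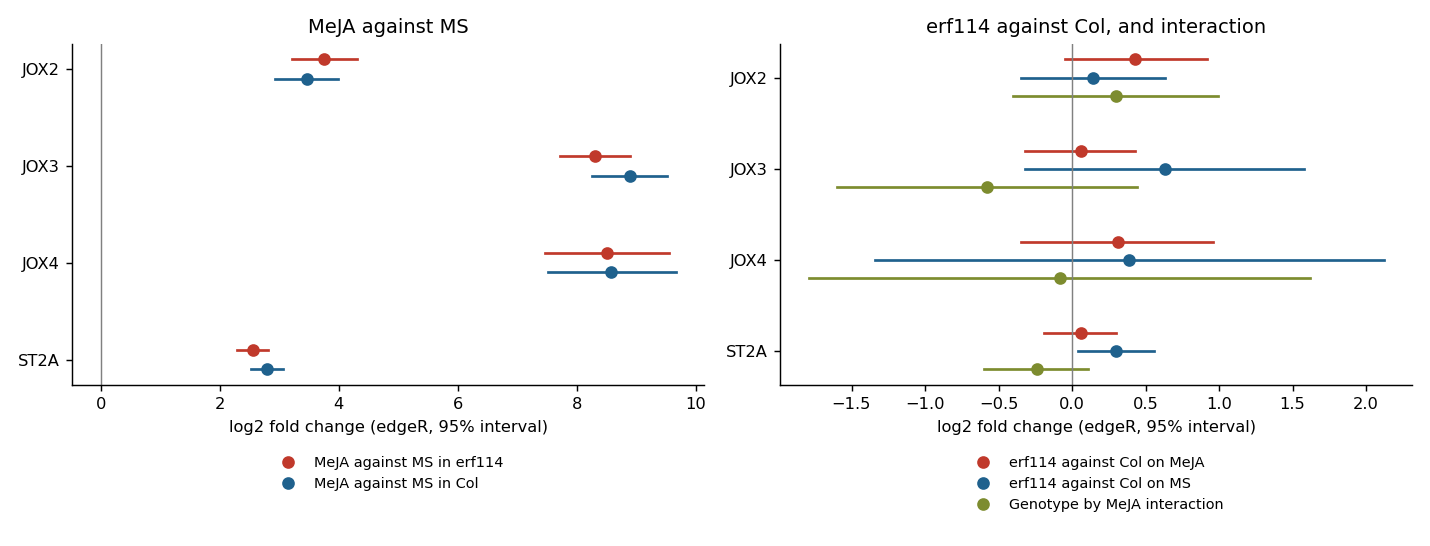
Log2 fold changes (points) with 95% intervals (lines) from the edgeR fit for JOX2, JOX3, JOX4 and ST2A; left, MeJA against MS in erf114 and in Col, right, erf114 against Col on MeJA and on MS and the interaction. All intervals at the left lie above 2, whereas at the right each spans 0 except that of ST2A on MS (0.04 to 0.56).

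The sequence before each gene start (TAIR10.1) was searched on both strands for CACGTG, the G-box, for its variants CACATG and AACGTG, which MYC-type jasmonate factors are known to bind, and for GCCGCC, the core bound by many ERF proteins. The windows of JOX1 and JOX3 are shown because JOX1, which had almost no reads, and JOX3, among the largest rises, both hold a match; matches are in capitals.
JOX1, chr3:3503667-3503916, plus strand: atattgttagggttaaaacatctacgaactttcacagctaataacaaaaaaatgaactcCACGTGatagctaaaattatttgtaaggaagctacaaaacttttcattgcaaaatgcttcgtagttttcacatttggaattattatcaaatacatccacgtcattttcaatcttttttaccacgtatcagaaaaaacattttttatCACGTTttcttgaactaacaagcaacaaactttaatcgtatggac
JOX3, chr3:20769411-20769660, minus strand: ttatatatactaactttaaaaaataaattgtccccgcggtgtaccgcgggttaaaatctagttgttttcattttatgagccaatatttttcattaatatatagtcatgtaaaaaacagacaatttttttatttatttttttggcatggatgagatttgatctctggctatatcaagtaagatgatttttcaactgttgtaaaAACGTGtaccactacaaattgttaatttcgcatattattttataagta
JOX2, chr5:1671996-1672025, plus strand: aatgcatagtttCACATGtcgatacaaatt
In the 250 bases before the start, JOX1 held CACGTG on its own strand and AACGTG on the other, JOX3 held AACGTG and JOX2 held CACATG, and JOX4 and ST2A held none of the 4 motifs. The JOX2 match lies within the annotated gene AT5G05598, which ends 7 bases before JOX2 and overlaps its window, so only the bases around the match are printed. In all 27443 such windows of protein-coding genes, CACGTG was in 6.49%, CACATG in 11.1%, AACGTG in 7.54% and GCCGCC in 1.87%. In 1000 bases JOX4 held 1 AACGTG and ST2A 1 CACATG, motifs in 23.8% and 37.7% of windows of that length, and none of the 5 genes held GCCGCC. A match is a description of the letters and no record of binding.

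Among genes other than the 5 members, those with profiles most like each member over the 12 libraries were found by the root mean square difference of log2(FPKM + 1) centred on each gene's mean. For JOX3 these were VSP2, a vegetative storage protein gene (difference 0.24), BGLU24, a beta-glucosidase gene (0.286), and CLH1, a chlorophyllase gene (0.292). For JOX4 they were BGLU24 (0.183), CLH1 (0.304) and VSP1 (0.334). JOX3 and JOX4 themselves lay 0.285 apart, so VSP2 alone was nearer to JOX3 than JOX4 was, and BGLU24 alone was nearer to JOX4 than JOX3 was. BGLU24 averaged 106 FPKM in erf114 and 80.5 FPKM in Col with MeJA, against 0.493 FPKM in erf114 and 0.283 FPKM in Col on MS. For JOX2 the nearest were AT5G02170 (0.215), AT2G47950 (0.224) and AT3G22250 (0.242), and for ST2A they were AT4G13860 (0.142), AT2G17500 (0.150) and JAL33, a jacalin-related lectin gene (0.152). JOX1, near 0 throughout, was nearest to genes of constant level such as AT2G25610 (0.0505). JOX2 and ST2A lay 0.628 apart, and ST2A and JOX3 1.92 apart.

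Other genes of jasmonate turnover were examined by lists chosen by name. Of all genes tested, 8.59% were called lower with MeJA in erf114 and 11.5% in Col, beside the shares called higher given above. Of 6 genes for oxidation of JA-Ile and its cleavage to jasmonic acid, 4 were higher with MeJA in erf114 and 4 in Col, with none lower; the median log2 change was 2.04 in erf114 and 2.00 in Col, where that of all genes was -0.01 in erf114 and at most that size in Col. CYP94B1, a JA-Ile hydroxylase, averaged 127 ± 5.77 FPKM in Col with MeJA against 9.41 ± 0.870 FPKM in Col on MS (SD, n = 3). Its log2 change was 4.58 ± 0.23 in erf114 and 3.80 ± 0.22 in Col. IAR3, an amidohydrolase that cleaves JA-Ile, changed by 1.92 ± 0.13 in erf114 and 2.04 ± 0.13 in Col, and ILL6, its relative, by 2.16 ± 0.20 in erf114 and 1.99 ± 0.20 in Col. CYP94B2, another gene of the CYP94B oxidases, rose by 2.53 ± 0.30 in erf114 (adjusted p = 6.1e-05) and 2.01 ± 0.29 in Col (adjusted p = 0.00032). CYP94B3 and CYP94C1, also JA-Ile oxidases, did not pass. CYP94C1 had a log2 change of 0.79 ± 0.54 in erf114 (adjusted p = 0.41) and 0.81 ± 0.54 in Col (adjusted p = 0.32). CYP94B3 had a log2 change of 1.83 ± 0.83 in erf114 (adjusted p = 0.17) and 0.63 ± 0.81 in Col (adjusted p = 0.61), with replicates far apart.

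Of 7 tested genes for conjugation, methyl ester hydrolysis and glucosylation, 2 were higher and 2 lower with MeJA in erf114, and 3 were higher and 1 lower in Col. UGT76E1, a glucosyltransferase of 12-hydroxyjasmonic acid, rose by 4.14 ± 0.42 in erf114 and 4.40 ± 0.42 in Col on the log2 scale. Its MS means were 0.337 ± 0.298 FPKM in erf114 and 0.380 ± 0.235 FPKM in Col (SD). UGT76E1 thus passed the filter only through its MeJA libraries, and its calls are not independent of the filter. The methyl esterase gene MES1 rose by 2.17 ± 0.18 in erf114 and 2.18 ± 0.18 in Col. MES2, another methyl esterase gene, fell in both genotypes, with log2 changes of -0.59 ± 0.12 in erf114 and -0.90 ± 0.12 in Col. JAR1, which conjugates jasmonic acid to isoleucine, was called lower in erf114 at -0.32 ± 0.10 (adjusted p = 0.039). In Col it was not called, at -0.05 ± 0.10 (adjusted p = 0.73). The JAR1 interaction of -0.27 ± 0.14 did not pass (adjusted p = 0.64), so no difference in response between the genotypes was shown.

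ST2A needs the sulfate donor PAPS. Of 9 genes for its supply and the breakdown of its product, 5 were higher and 1 lower with MeJA in each genotype, with a median log2 change of 1.13 in erf114 and 1.27 in Col. The adenylyl sulfate kinase genes APK1 and APK2 rose by 1.93 ± 0.12 and 2.52 ± 0.20 in erf114 and by 1.94 ± 0.12 and 2.06 ± 0.20 in Col, and SAL1, a phosphatase that breaks down the spent donor, by 1.60 ± 0.11 in erf114 and 1.43 ± 0.11 in Col. Of 10 tested other cytosolic sulfotransferases, 3 were higher and 1 lower in erf114 and 4 higher and 3 lower in Col, with medians of 0.45 in erf114 and 0.16 in Col. SOT16 and SOT17, which act in glucosinolate synthesis, rose by 1.70 ± 0.18 and 1.99 ± 0.12 in erf114 and by 1.43 ± 0.18 and 2.09 ± 0.12 in Col, and SOT5 fell by 1.57 ± 0.18 in erf114 and 1.38 ± 0.18 in Col.

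Of 16 tested other 2-oxoglutarate oxygenases, 7 were higher and 4 lower with MeJA in each genotype, with median log2 changes of 0.27 in erf114 and 0.12 in Col. DAO2 and DAO1, which oxidise auxin, rose by 4.72 ± 0.23 and 2.35 ± 0.17 in erf114 and by 4.44 ± 0.23 and 2.46 ± 0.18 in Col. S8H, a scopoletin hydroxylase, was called lower in both genotypes. It had 0.0133 ± 0.0231 FPKM in erf114 with MeJA against 2.35 ± 0.894 in erf114 on MS. In Col it had 0.0133 ± 0.0231 with MeJA against 1.27 ± 0.432 on MS. S8H passed the filter only through its MS libraries, the groups where it was higher. Its calls are therefore not independent of the filter, and its MeJA levels lay near the floor. Between the genotypes 1 gene of these lists passed: ACO1, an ethylene-forming oxidase, had 16.4 ± 2.60 FPKM in erf114 with MeJA and 8.83 ± 0.918 in Col with MeJA (log2 difference 1.00 ± 0.14, adjusted p = 0.01).

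**Figure D4:**
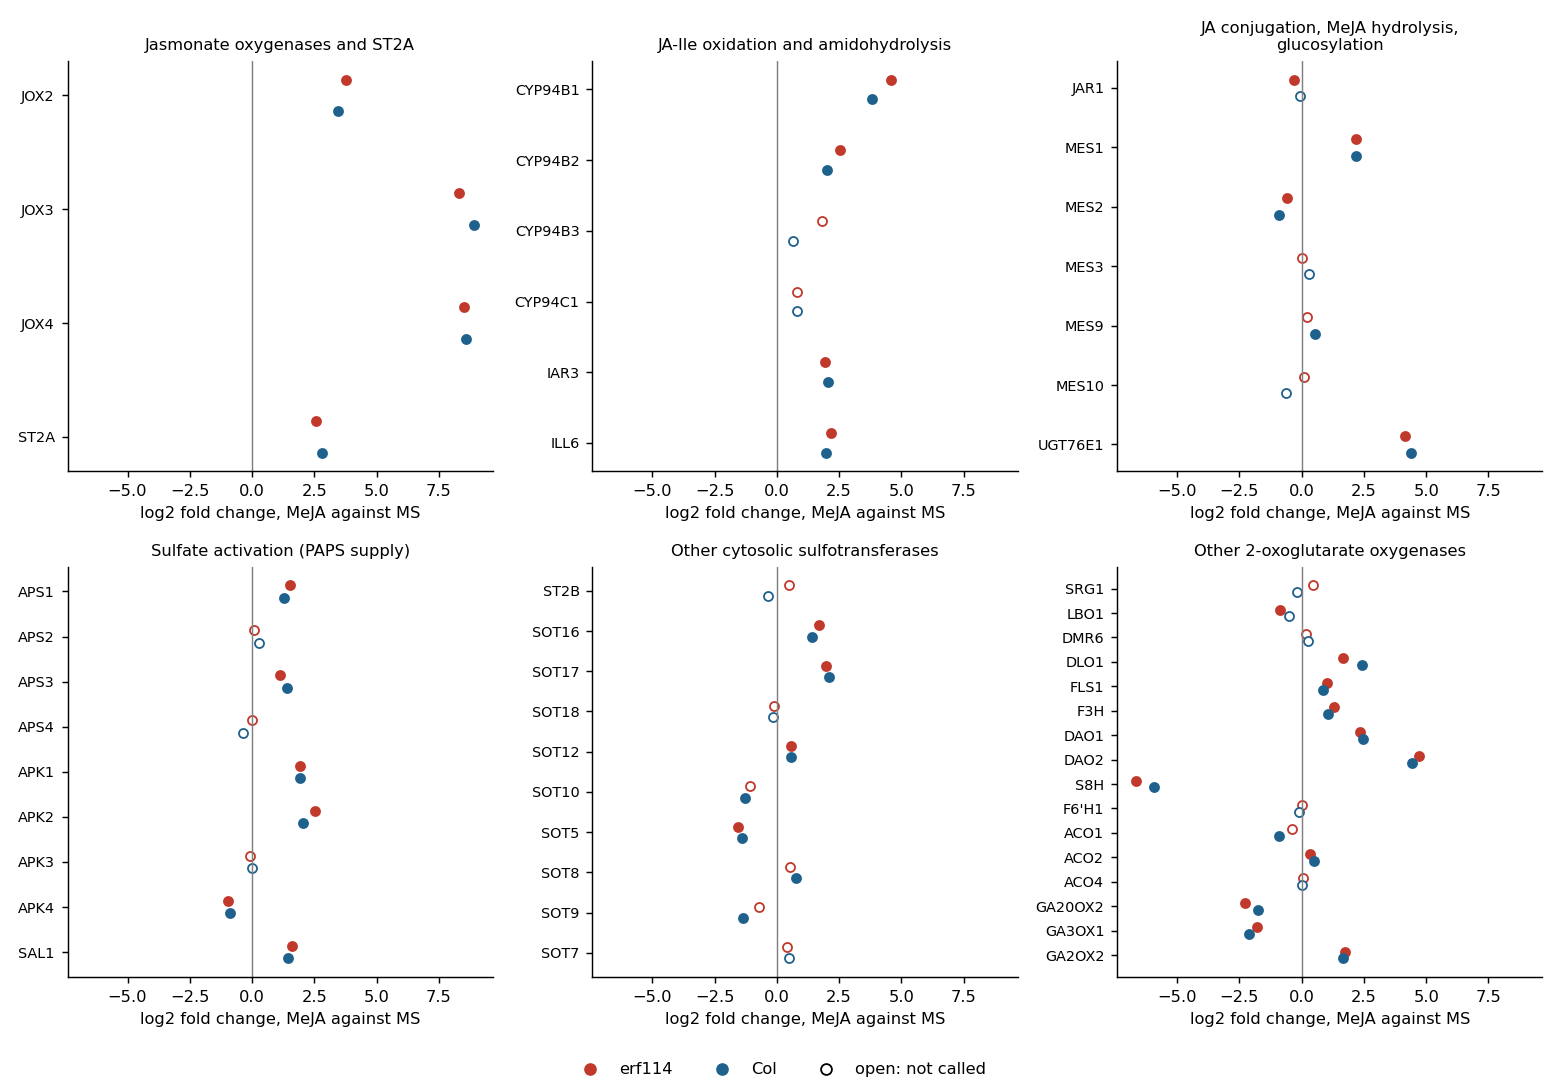
Log2 fold change of MeJA against MS (horizontal axes) for the tested genes of each list, with erf114 above Col for each gene; open points did not pass the test. JOX3 and JOX4 lie beyond 8 in both genotypes, and no other gene drawn lies above 4.72.

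The genes on either side of each member on the chromosome were also read. Of 8 neighbours tested, only AL1, next to JOX2 at 2118 bases, was called in the edgeR fit, with log2 changes of 0.30 ± 0.09 in erf114 (adjusted p = 0.032) and 0.43 ± 0.09 in Col (adjusted p = 0.0038). PDX1.1, whose annotated end lies 19 bases from JOX4, had log2 differences of 0.43 ± 0.27 in erf114 and -0.16 ± 0.27 in Col, and neither passed.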

How the data were processed

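RNA from roots was sequenced in 12 libraries, grouped by title. Each library has a table that the authors deposited with 3 columns of values, which per the file headers are a read count, TPM and FPKM. The counts, deposited by the authors, are partly fractional and so estimated counts. Aligner, counting tool and genome build: not given in the sources used here. Deposited TPM values were not used. The deposited FPKM values gave levels and the filter (at least 1 in at least 3 libraries). A gene missing from a table was set to 0. All 23719 identifiers matched TAIR10.1, which gave symbols, positions and sequences. The estimated counts (1.54 to 1.72% fractional) were rounded. The test was edgeR 4.0.16 (R 4.3.3): TMM, 4 group means, 8 residual degrees of freedom, Benjamini-Hochberg at 0.05. Alternatives were DESeq2 1.42.0, limma 3.58.1 on log2(FPKM + 1) and on log2(FPKM + 0.1), other filters and scaling, each library left out, the groups of a contrast alone, and the replicate block. Scripts were tested on simulated data. Replicate pairs differed beyond sampling noise.

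Replicate numbers paired MS and MeJA libraries in Col (correlations of deviations 0.43, 0.43 and 0.26) and the genotypes on MS (0.20, 0.21 and 0.30), by the rule of over 0.1 in every pair, and not the other contrasts. What a number shares is not given in the labels. Genes named are the members, ERF114, up to 4 called genes of a list and contrast with the largest change, and the 3 genes most like each member; CYP94B3, CYP94C1, ST2B and neighbours fall outside this rule and were named after their values were seen. The members and lists were chosen with earlier results of these data known. Depth and 3 libraries a group limit the precision, and intervals on counts cover counting error only.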

Additional observations from a re-analysis of the deposited data

How the results depend on the processing

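The MeJA calls of JOX2, JOX3, JOX4 and ST2A kept their direction and passed in both genotypes under all 21 alternatives (largest adjusted p 0.0014). Log2 changes ranged over 3.49 to 4.03 in erf114 and 3.31 to 3.67 in Col for JOX2, 6.07 to 8.80 and 6.29 to 9.13 for JOX3, 5.94 to 9.87 and 5.86 to 9.87 for JOX4, and 2.13 to 2.65 and 2.57 to 2.83 for ST2A, the lowest values of JOX3 and JOX4 with limma on log2(FPKM + 1).

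Differences between the genotypes that did not pass turned sign in places. With 1 library left out, the difference on MS ranged over -0.15 to 0.35 for JOX2, -0.98 to 1.68 for JOX4 and -1.20 to 2.56 for ERF114, and on MeJA over -0.04 to 0.23 for JOX3 and -0.04 to 0.16 for ST2A. With limma these were -0.06 for JOX3 at either pseudocount and -0.07 and -0.08 for ST2A. The JOX4 interaction ranged over -1.37 to 1.28 with a library left out, was 0.00 in DESeq2, and with limma was 0.08 at a pseudocount of 1 and -0.12 at 0.1. With a library left out the interaction ranged over 0.08 to 0.58 for JOX2 and -0.82 to -0.09 for JOX3. The ratio of JOX3 to JOX4 ranged over -0.84 to 0.14. ERF114 on MeJA passed with DESeq2 (-1.95), limma at a pseudocount of 1 (-1.14) but not at 0.1 (-1.90, adjusted p 0.096), only the 2 groups (-1.96), these with the replicate block (-1.95) and without Col MS replicate 1 (range -2.07 to -1.78). The cause was not tested.

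Counts of called genes moved. For MeJA in erf114 (3438), limma called 5419 and, at the lower pseudocount, 5352, and the replicate block on the 2 groups alone called 2028. Limma's calls split into 1224 higher and 4195 lower in erf114 and 1509 and 3111 in Col, against 1863 and 1575, and 1912 and 2114, in the edgeR fit; the median of all genes on log2(FPKM + 1) was -0.28 in erf114 and -0.05 in Col. Between genotypes on MS (6), DESeq2 called 19, the 2 groups alone 3, and leaving out a library 3 to 16. On MeJA (70) these were 233 in DESeq2 and 19 to 133, and for the interaction (5) 41 and 0 to 8. The replicate block in all 12 libraries called 4405 genes for MeJA in Col and 4 between genotypes on MS and changed no call of a member.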
